A study of Mus musculus with 8 samples.

Results

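The Myc family genes Mycn, Myc, Mycl, Max and Mxd1 were followed in cells of the mouse yolk sac, 5 of 23091 genes listed. In libraries of A1 and A2 cells, myeloid progenitors on the way to macrophages, Mycn averaged 9.12 ± 2.61 counts per 1000000 transcripts (CPM), against 76.2 ± 18.3 CPM in libraries of EMP cells, the erythromyeloid progenitors they arise from (SD, n = 4 libraries each). Myc averaged 79.1 ± 7.16 CPM in A1/A2 libraries and 56.1 ± 18.6 CPM in EMP libraries. Within the EMP libraries, wells that held transcripts of both Kit and Cdh5 averaged 177 ± 54.2 CPM of Mycn. Mxd1, which competes with Myc proteins for their partner, stood at 67.9 to 169 CPM in A1/A2 wells with S100a8 and no Cx3cr1 transcripts, against 4.78 to 10.7 CPM in wells with Cx3cr1 and no S100a8. Myc stood at 10.7 to 22.8 CPM in those S100a8 wells, against 92.7 to 117 CPM in those Cx3cr1 wells.

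The members were taken by symbol from the table of each library. They were chosen with earlier results of these data known, among them the lower Mycn of the A1/A2 libraries, and for their levels in wells with Kit, Cx3cr1, Cdh5 or S100a8 transcripts. The members' values between the A1/A2 and EMP libraries and between these classes of wells are therefore a description, without a test. Both groups, 4 A1/A2 and 4 EMP libraries numbered 1 to 4, came from wild-type mice, strain C57BL/6N, untreated as far as the labels say. The titles number both groups alike, as P1 to P4. The tissue was extraembryonic yolk sac at day 9.5 of gestation, and 1 batch is labelled. CD45 and CD11b were stained and CD45-positive cells sorted, per the labels. No label tells which well of an A1/A2 library holds an A1 and which an A2 cell. The labels do not say whether libraries came from separate animals, so p-values rest on the spread between these libraries, which may be technical. The fits pool that spread over genes. The p-values and standard errors (SE) therefore do not measure a single gene's own spread between libraries.

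Wells with a total of at least 1000 transcripts were kept, 568 of 768 for A1/A2 cells and 655 of 768 for EMP cells. Kept transcripts per library ranged over 2558197 to 3559612 (A1/A2) and 3888853 to 5418136 (EMP), and the median well held 6153 transcripts in A1/A2 and 20368 in EMP libraries. The sorts differed in lineage markers: 10 of 12 macrophage markers were higher in A1/A2 than in EMP libraries, and 11 of 12 endothelial and 7 of 11 progenitor markers were lower. Some wells held markers of other tissues. At least 2% of transcripts came from 16 yolk sac endoderm markers in 98 A1/A2 wells and 236 EMP wells, and 5 A1/A2 and 7 EMP wells held at least 5% globin transcripts. No well was identical to another (0 pairs).

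The Myc proteins, encoded by Myc, Mycn and Mycl, are transcription factors that bind DNA only as partners of MAX, mostly at the sequence CACGTG, and raise genes of ribosome assembly, nucleotide synthesis and the cell cycle. MXD1 and its relatives compete for MAX and repress the same sites, and MXD1 is known to increase as blood cells stop dividing and mature. Myc and Mycn can stand in for each other in many tissues and are both used by adult blood stem cells. Erythromyeloid progenitors bud from the endothelium of the yolk sac. Kit encodes the stem cell factor receptor, Cdh5 the endothelial adhesion molecule VE-cadherin, Cx3cr1 the fractalkine receptor of macrophages and their precursors, and S100a8 a calcium-binding protein of neutrophils and monocytes.

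The 250 bases upstream of the annotated starts of Mycn and Mxd1 are shown as the promoter windows of a pair of members that the results turn on, and come from RefSeq (GRCm38.p6), where 4 of the 5 members matched, all but Myc. Mycn lies at chr12:12941837-12942086 on the minus strand and Mxd1 at chr6:86669160-86669409 on the minus strand, both 5′ to 3′ along the gene.
Mycn: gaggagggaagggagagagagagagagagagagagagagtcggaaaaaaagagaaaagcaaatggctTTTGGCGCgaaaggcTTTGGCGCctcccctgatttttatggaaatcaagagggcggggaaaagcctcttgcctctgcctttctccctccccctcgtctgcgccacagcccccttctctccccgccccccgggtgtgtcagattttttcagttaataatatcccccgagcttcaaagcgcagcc
Mxd1: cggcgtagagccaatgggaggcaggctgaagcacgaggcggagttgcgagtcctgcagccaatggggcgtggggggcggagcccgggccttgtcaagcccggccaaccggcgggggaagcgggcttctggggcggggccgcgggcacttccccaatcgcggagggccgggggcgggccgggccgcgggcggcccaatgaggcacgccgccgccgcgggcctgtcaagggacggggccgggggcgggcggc
Capitals mark matches, on either strand, to TTTGGCGC, a form of the E2F site known from cell-cycle genes, which was chosen after the Mycn sequence had been read. The Mycn window held 2 matches, starting 183 and 168 bases upstream, and the Mxd1 window held 0. Of 32851 promoter windows of the same length, 0.42% held this motif. CACGTG was found in neither window, against 6.02% of all windows. The windows of Mycl and Max held neither motif. Of the bases, 54.8% in Mycn and 78.4% in Mxd1 were G or C, against a mean of 53.2% over all windows. These are matches of letters and were not tied to any value below.

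A CPM value is the share of a library's or class's transcripts that came from the gene. The method counts each molecule once at its 3′ end, so CPM values of different genes can be set side by side without dividing by length, although capture may differ between genes. Fewer cells that express a gene and less RNA per cell cannot be told apart in such sums. Mycn stood at 9.39, 8.43, 6.18 and 12.5 CPM in A1/A2 libraries 1 to 4, against 86.0, 51.3, 93.0 and 74.4 CPM in EMP libraries 1 to 4. The groups did not overlap, and the lowest EMP library was 4.11 times the highest A1/A2 library. In identifiers, the molecular tags behind the counts, this rested on 114 for Mycn in A1/A2 and 1484 in EMP libraries. The ratio of the mean levels, EMP over A1/A2, was 8.36. The share of all genes whose groups do not overlap was not counted. Nothing about how unusual a member is can be read from a lack of overlap, here or below.

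Myc, the founding member, differed less. It stood at 84.5, 71.2, 74.9 and 85.7 CPM in the A1/A2 libraries, against 67.9, 29.2, 69.2 and 58.2 CPM in the EMP libraries. All 4 A1/A2 values lay above the EMP values, and EMP library 2 was the lowest. That library also held 93 of the 236 EMP wells with endoderm markers, the most of the 4, and a link between the 2 was not tested. Without endoderm-marker and globin wells, Myc averaged 98.0 ± 2.26 CPM in A1/A2 and 88.7 ± 21.4 CPM in EMP libraries, and the groups overlapped. Over the same wells Mycn averaged 9.001 ± 2.89 CPM in A1/A2 and 132 ± 4.67 CPM in EMP libraries, with the EMP libraries between 128 and 138 CPM.

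Mycl, the family member known from lung and dendritic cells, was close to absent. It gave 15 identifiers in all in A1/A2 wells and 15 in EMP wells, and its levels were at most 1.45 CPM in A1/A2 and 1.29 CPM in EMP libraries. No kept well of EMP library 4 held a Mycl transcript. Max, the shared partner, differed little: 82.9, 95.6, 78.5 and 79.0 CPM in A1/A2 libraries, against 74.7, 89.0, 77.8 and 79.3 CPM in EMP libraries, which overlapped. Mxd1 was low and uneven, at 6.26, 14.3, 24.0 and 13.9 CPM in A1/A2 libraries, against 8.38, 11.4, 8.79 and 9.52 CPM in EMP libraries, which overlapped as well. Between these sorts 32.8% of 11144 genes tested were called at an adjusted p of 5%, and nothing is read from that for the members.

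**Figure D1:**
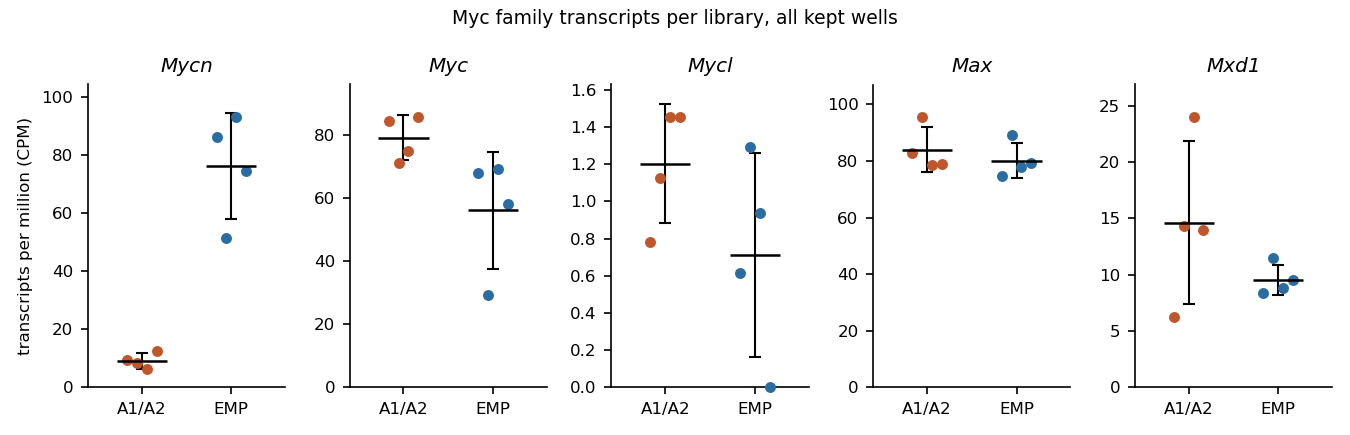
Level (CPM, vertical axis from 0, a scale of its own for each gene) of the 5 Myc family genes in each of the 4 A1/A2 libraries (left, orange) and the 4 EMP libraries (right, blue), with the mean (line) and SD (bar). Mycn lies at 6.18 to 12.5 CPM in A1/A2 and 51.3 to 93.0 CPM in EMP libraries, while Max overlaps.

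The ratio of Mycn to Myc within a library needs no scaling between libraries. Mycn made up 9.99%, 10.6%, 7.61% and 12.7% of the Mycn and Myc transcripts in the A1/A2 libraries, against 55.9%, 63.8%, 57.3% and 56.1% in the EMP libraries. The means were 10.2% ± 2.10 in A1/A2 and 58.3% ± 3.72 in EMP libraries (SD, n = 4 each). With each well given equal weight in place of its transcripts, they were 19.8% ± 7.23 in A1/A2 and 56.6% ± 4.47 in EMP libraries. Without endoderm-marker and globin wells the means were 8.34% ± 2.28 in A1/A2 and 60.1% ± 7.08 in EMP libraries.

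Single wells showed the same contrast in a graded form. Among wells with at least 5 Mycn and Myc identifiers together, 82 in A1/A2 and 185 in EMP libraries, Myc made up over 80% in 71 A1/A2 wells and 31 EMP wells. Mycn made up over 80% in 2 A1/A2 wells and 47 EMP wells. Between those bounds lay 9 A1/A2 wells and 107 EMP wells. The median well of this set held 0% Mycn in A1/A2 and 60.9% Mycn in EMP libraries. The set is chosen by the sum of both genes, so most A1/A2 wells entered it through Myc. Among all kept wells, 568 in A1/A2 and 655 in EMP libraries, both transcripts were seen together in 43 and 212. Mycn alone was seen in 32 A1/A2 and 117 EMP wells, and Myc alone in 149 and 79. Their median totals differed, at 6153 and 20368 transcripts. The 107 EMP wells between the bounds held both messages at once, and the highest count in a single well was 48 Mycn identifiers, in an EMP well.

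**Figure D2:**
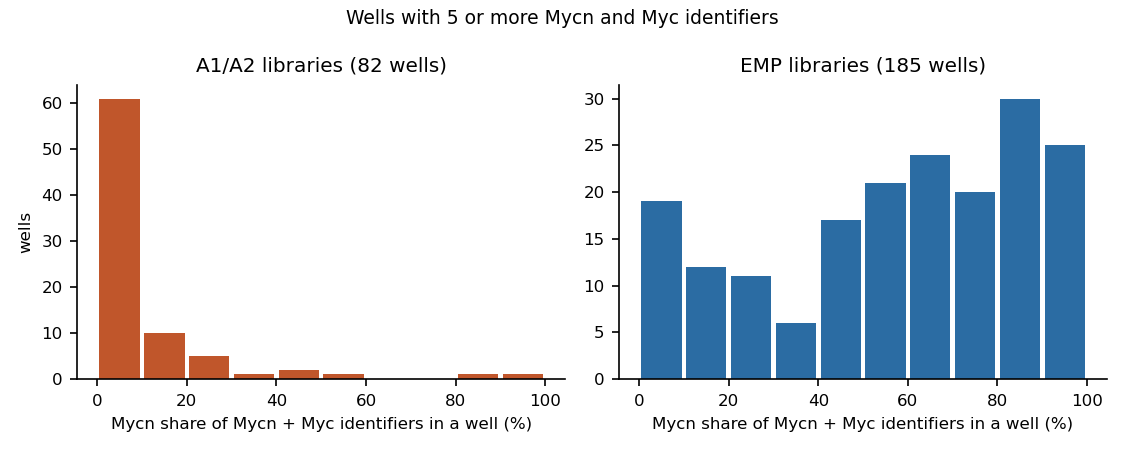
Number of wells (vertical axis) by the Mycn share of Mycn and Myc identifiers in the well (horizontal axis, in percent) for A1/A2 libraries (left, 82 wells) and EMP libraries (right, 185 wells), among wells with 5 or more such identifiers. A1/A2 wells pile up at the Myc end, with 2 above 80%, whereas EMP wells spread over the whole range.

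Shares of wells with a transcript depend on depth, so each well was also drawn down to 1000 transcripts. Without that step, Mycn was seen in 12.9% ± 3.91 of A1/A2 wells and 50.2% ± 2.36 of EMP wells. At 1000 transcripts it was seen in 1.70% ± 1.24 of A1/A2 wells and 6.87% ± 0.908 of EMP wells. Myc was seen in 3.35% ± 0.920 of A1/A2 and 5.39% ± 1.45 of EMP wells at that depth, and Max in 7.96% ± 2.22 and 7.68% ± 1.37. In endoderm-marker wells, which are deeper (median totals 25883 in A1/A2 and 34019 in EMP libraries), Mycn was seen at 1000 transcripts in 0 of 98 A1/A2 wells, which allows a share of up to 3.06%, and in 3.77% ± 2.22 of EMP wells. At 5000 transcripts, 262 shallower A1/A2 and 150 shallower EMP wells were left out. Mycn was then seen in 4.63% ± 1.77 of A1/A2 wells and 28.9% ± 1.02 of EMP wells. Myc was seen at this depth in 24.5% ± 5.53 of A1/A2 and 24.3% ± 6.22 of EMP wells. The Myc shares of wells at equal depth were thus not higher at both depths in A1/A2 libraries, unlike its CPM sums. In sums of all transcripts, Mycn stood at 9.63 ± 2.30 CPM in A1/A2 and 32.0 ± 9.85 CPM in EMP endoderm-marker wells.

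Within the EMP libraries, both Mycn and Myc identifiers lay mostly in Kit wells, and a larger part of Mycn than of Myc lay in Cdh5 wells. Wells with a Kit transcript, 270 of 655, held 57.6% of all EMP transcripts and 85.7% of the Mycn identifiers, against 79.7% of the Myc and 65.6% of the Max identifiers. Wells with a Cdh5 transcript (126) held 23.7% of transcripts and 51.5% of Mycn, but 28.5% of Myc and 24.7% of Max identifiers. Mycn averaged 111 ± 21.7 CPM in Kit wells and 154 ± 37.8 CPM in Cdh5 wells. Wells with none of the 4 markers averaged 23.6 ± 3.11 CPM. In Kit wells without Cdh5 Mycn averaged 73.7 ± 5.69 CPM, against 76.2 ± 18.3 CPM in all kept EMP wells. Without endoderm-marker and globin wells, the EMP libraries averaged 132 ± 4.67 CPM. Endoderm-marker wells held 53.8% of EMP transcripts, but 22.0% of the Mycn and 23.4% of the Myc identifiers. In Cdh5 wells the Mycn share of Mycn and Myc was 71.5%, 71.6%, 72.0% and 69.0% in libraries 1 to 4, a spread of 1.36 (SD).

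Dividing these wells by both markers, a step taken after the values had been seen and so given without a test, began with the 94 wells that held Kit and Cdh5 together. There Mycn stood at 240, 111, 196 and 162 CPM in EMP libraries 1 to 4. In the 176 wells with Kit and no Cdh5 it stood at 70.5, 80.6, 76.0 and 67.8 CPM. In the 32 wells with Cdh5 and no Kit it stood at 21.9, 62.9, 126 and 34.5 CPM. In each of the 4 libraries the wells with both markers stood above either class with 1 marker. Myc averaged 69.4 ± 17.7 CPM in wells with both markers, 80.04 ± 35.3 CPM with Kit alone and 42.9 ± 47.5 CPM with Cdh5 alone. Detection of both markers also needs depth, and the median totals were 26856, 31380 and 9738 transcripts in these 3 classes.

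**Figure D3:**
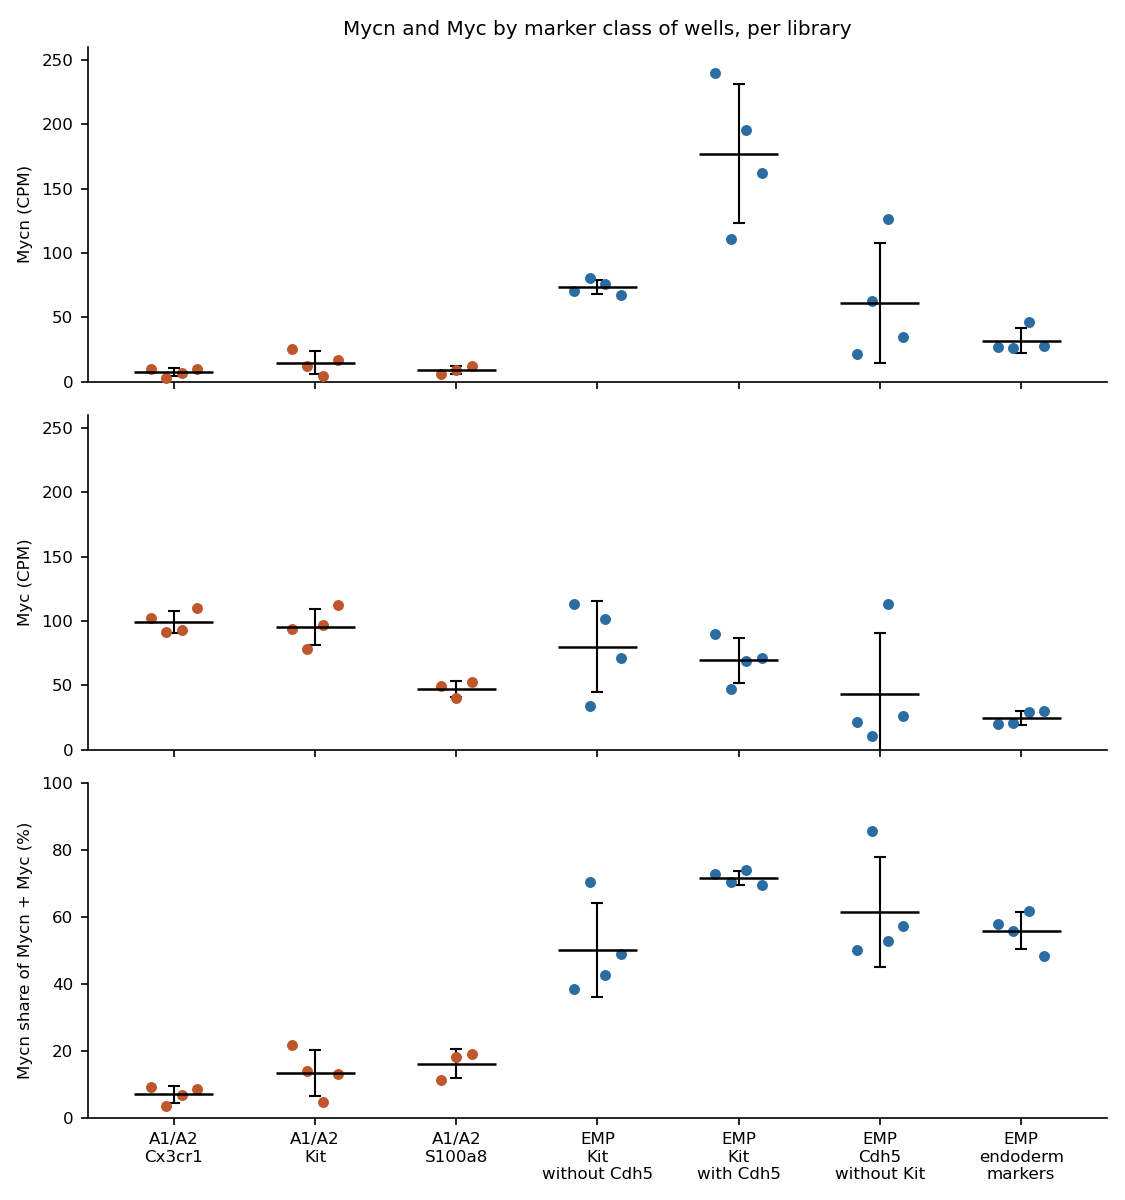
Mycn level (top, CPM), Myc level (middle, CPM) and Mycn share of Mycn and Myc transcripts (bottom, percent) in classes of wells defined by marker transcripts, in A1/A2 libraries (orange, left) and EMP libraries (blue, right); points are libraries, lines are means and bars are SD, cut at 0. The EMP wells with Kit and Cdh5 lie at 111 to 240 CPM of Mycn, and the Kit, Cx3cr1 and S100a8 wells of the A1/A2 libraries plotted lie at 3.24 to 25.9 CPM.

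Mycn also differed between the sorts among wells with the same marker, given as a description. Kit wells of the A1/A2 libraries (73) held 25.9, 12.7, 4.78 and 16.7 CPM of Mycn, against 132, 87.0, 127 and 99.6 CPM in the Kit wells of the EMP libraries. Cx3cr1 wells of the A1/A2 libraries (196) averaged 7.63 ± 3.41 CPM, against 58.3 ± 28.6 CPM in the 31 Cx3cr1 wells of the EMP libraries. Neither pair of groups overlapped, but the sorts differed in how often such wells held other markers. Of the Cx3cr1 wells, 153 in A1/A2 and 7 in EMP libraries held no Kit transcript. There Mycn stood at 1.86 to 9.56 CPM in A1/A2 and 0 to 37.2 CPM in EMP libraries, which overlapped. The EMP values rest on 6 identifiers. Myc in the A1/A2 classes was 99.0 ± 8.70 CPM in Cx3cr1 wells and 95.4 ± 13.8 CPM in Kit wells. In EMP Kit wells it was 75.2 ± 29.0 CPM. Of the Kit wells, 30 in A1/A2 and 246 in EMP libraries held no Cx3cr1 transcript. There Mycn averaged 21.9 ± 15.7 CPM in A1/A2 and 119 ± 18.9 CPM in EMP libraries. Its share of Mycn and Myc was 57.7% ± 41.8 in these A1/A2 wells, ranging from 2.94% to 100% by library. In these EMP wells the share was 62.9% ± 6.92. The A1/A2 values rest on 16 Mycn and 42 Myc identifiers.

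Classes within a sort were then set against each other with the library as a block. Because the members' levels in these classes were among the values that chose them, their log2 fold changes and SE are a description, while genes of other lists are tested further on. In the EMP libraries, wells with Kit and no Cdh5 were set against wells with Cdh5 and no Kit. Of 9548 genes, edgeR called 7.59%, 3.29% higher and 4.3% lower, and nothing is read from that for the members. Myc stood at 113, 34.1, 102 and 71.3 CPM in Kit wells of libraries 1 to 4, against 21.9, 10.5, 114 and 25.9 CPM in Cdh5 wells, higher in 3 of 4 libraries. Its log2 fold change was 1.09 ± 0.30. Leaving out EMP library 1, 2 or 4 gave 0.36, 1.07 and 1.04, and leaving out library 3 gave 2.10.

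Mycn had in that comparison a log2 fold change of 0.42 ± 0.28, which was 1.15 without EMP library 3, -0.11 without library 1 and 0.02 without endoderm-marker and globin wells. Max had 0.68 ± 0.27 and Mxd1 0.18 ± 0.71. The Cdh5 sums held 6 to 11 wells per library, which limits the precision. Mesenchyme markers moved with the same comparison, 5 of 6 tested being higher in Kit wells at 52.3 to 876 CPM summed over the list against 60.3 to 136 CPM in Cdh5 wells, and all 11 endothelial markers tested were lower. Their part in the result was not tested.

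In the A1/A2 libraries, wells with Cx3cr1 and no Kit were set against wells with Kit and no Cx3cr1. Of 8674 genes, edgeR called 6.27%, 3.69% higher and 2.58% lower, from which again nothing is read for the members. Mycn stood at 2.34, 1.86, 6.71 and 9.56 CPM in Cx3cr1 wells against 21.5, 22.2, 2.71 and 41.2 CPM in Kit wells, lower in 3 of 4 libraries. Its log2 fold change was -1.96 ± 0.73, and it rested on 30 identifiers in Cx3cr1 and 16 in Kit wells. Median totals were 33646 transcripts in these Cx3cr1 and 12931 in these Kit wells. The Kit sum of library 1 held only 46564 transcripts. Leaving out 1 library gave -2.77 to -1.32, and leaving out endoderm-marker and globin wells -2.45.

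Myc stood at 103, 84.5, 89.0 and 98.7 CPM in the Cx3cr1 wells against 0, 22.2, 89.5 and 11.8 CPM in the Kit wells. Libraries 1, 2 and 4 were higher in Cx3cr1 wells and library 3 was level. The log2 fold change was 1.14 ± 0.44, or 2.36 without library 3 and 1.02 without endoderm-marker and globin wells. Where each class needed 2 transcripts of its marker, it was -0.061. Max had 0.50 ± 0.26. The Kit sums held only 4 to 10 wells, and their erythroid markers summed to 1361 to 42113 CPM, against 132 to 2524 CPM in Cx3cr1 wells. Their part in the result was not tested.

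A1/A2 wells with S100a8 and no Cx3cr1 were set against wells with Cx3cr1 and no S100a8. Mxd1, the repressing partner of MAX, stood at 169, 126 and 67.9 CPM in the S100a8 wells of libraries 2, 3 and 4, against 6.72, 10.7, 4.78 and 8.68 CPM in the Cx3cr1 wells of libraries 1 to 4. Library 1 had no such S100a8 well and is not in the fit. The ranges did not overlap, and the log2 fold change of Mxd1 was 3.83 ± 0.44. Myc stood at 18.7, 22.8 and 10.7 CPM in the S100a8 wells, against 102, 92.7, 106 and 117 CPM in the Cx3cr1 wells, which did not overlap either. Its log2 fold change was -2.61 ± 0.45. Of 8458 genes, 18.3% were called, 9.74% higher and 8.61% lower, and nothing is read from that for the members.

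The log2 fold changes were 5.52 for Mxd1 and -4.41 for Myc without endoderm-marker and globin wells. Leaving out 1 of libraries 2 to 4 gave 3.38 to 4.38 for Mxd1 and -3.17 to -2.07 for Myc. The S100a8 sums are small, 26 wells with 61 Mxd1 and 10 Myc identifiers, and their median total was 3576 transcripts, against 37497 in Cx3cr1 wells. Max had -0.60 ± 0.35. Mycn had 1.13 ± 0.75, or 2.41 where 2 marker transcripts were needed, from 10 identifiers in S100a8 wells.

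Other lineages' markers moved with this comparison, and their part in the result was not tested beyond leaving out the wells above. All 16 endoderm markers were higher in the S100a8 wells, at 21865 to 32927 CPM summed, against 7280 to 13620 CPM in Cx3cr1 wells, and 6 of 10 macrophage markers tested were lower. The neutrophil markers summed to 462 to 1519 CPM in S100a8 wells and 68.3 to 109 CPM in Cx3cr1 wells. That sum includes S100a8 itself, which these Cx3cr1 wells lack by choice. Of 3 neutrophil markers tested without it, S100a9 and Retnlg were called higher, and Cxcr2 had a log2 fold change of -0.01. The granule genes Ngp and Camp were at 0 in all kept wells of both sorts, and Ltf was at 0 in the S100a8 wells. The wells are named here by their marker alone. Mxd1 itself was at 10.8 ± 5.74 CPM in A1/A2 endoderm-marker wells.

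**Figure D4:**
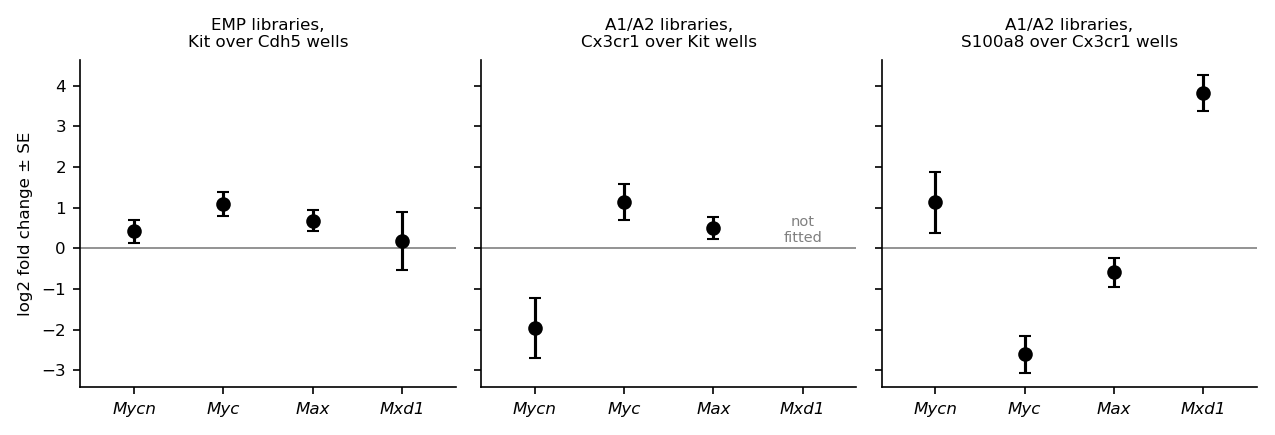
Log2 fold change (vertical axis) with its SE for Mycn, Myc, Max and Mxd1 in the 3 comparisons between classes of wells within a sort, the class named first over the class named after it. Mxd1 at 3.83 and Myc at -2.61 in the S100a8 comparison stand farthest from 0.

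Of the rest of the MAX network, 8 genes (Mxi1, Mxd3, Mxd4, Mnt, Mga, Mlx, Mlxip and Mlxipl), 0 of 7 tested were called between A1/A2 and EMP libraries by edgeR at an adjusted p of 5%, against 32.8% of all genes. Between EMP Kit and Cdh5 wells it was 0 of 7, against 7.59%, and between A1/A2 Cx3cr1 and Kit wells 0 of 4, against 6.27%. In the S100a8 comparison 1 of 5 was called, against 18.3% of all genes. This was Mlxipl, the glucose-sensing factor ChREBP of liver, with a log2 fold change of 2.33 ± 0.65 (adjusted p = 0.00385). Leaving out 1 of libraries 2 to 4 gave 0 to 1 genes of this list called higher there. The endoderm markers were higher in that comparison as well, and a link between them and Mlxipl was not tested.

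Of 14 cofactors of Myc and enzymes of its turnover, all tested, 4 were called between A1/A2 and EMP libraries, a share near the 32.8% over all genes, so that nothing is read from it about the list. Fbxw7, the ubiquitin ligase subunit that marks Myc and Mycn proteins for destruction, was higher in A1/A2 cells (log2 fold change 0.94 ± 0.18, adjusted p = 0.00224), as was Ruvbl2, a helicase of chromatin complexes (0.59 ± 0.12, adjusted p = 0.00371). Skp2, another ubiquitin ligase subunit, and Trrap, a scaffold of acetyltransferase complexes, were lower (-0.49 ± 0.10 and -0.46 ± 0.11, adjusted p = 0.00435 and 0.00943). Within the EMP libraries 0 of 11 were called, against 7.59% of all genes. Between A1/A2 Cx3cr1 and Kit wells 1 of 13 was called, against 6.27%, and in the S100a8 comparison 2 of 11, against 18.3%, both shares near those over all genes. Ruvbl2 was higher in A1/A2 Cx3cr1 wells than in Kit wells (1.09 ± 0.26, adjusted p = 0.00729) and lower in S100a8 wells than in Cx3cr1 wells (-1.63 ± 0.38, adjusted p = 0.000328). Against Cx3cr1 wells, Trrap was higher in S100a8 wells, at 0.88 ± 0.32 (adjusted p = 0.0339). In the S100a8 comparison 0 of these cofactors were called without endoderm-marker and globin wells, without library 3 or without library 4. Between A1/A2 Cx3cr1 and Kit wells, leaving out 1 library gave 0 to 1 cofactors called higher. Where 2 marker transcripts were needed, edgeR called 0 genes of any kind there.

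Textbook targets that Myc proteins activate were followed as 30 genes. Between A1/A2 and EMP libraries 14 were higher and 1 lower of 29 tested, with a median log2 fold change of 0.25 over the list against -0.02 over all genes, where 17.3% of genes were higher and 15.4% lower. Ccnd2, a cyclin of the G1 phase, changed most among those named (2.31 ± 0.27, adjusted p = 0.000369), and Pa2g4, Mcm5 and Eif4a1, of growth, DNA replication and translation, were between 0.46 and 0.61. Cdk4, a cell-cycle kinase, was the 1 lower gene (-0.28). The counts were 12 higher and 2 lower without endoderm-marker and globin wells. Thinned to 5000 transcripts per well, which left out shallower wells and left 6022 genes tested, 5 were higher, and without A1/A2 library 1 it was 9.

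Between EMP Kit and Cdh5 wells 15 of 28 targets were higher and 0 lower, with a median of 0.45 against 0.02 over all genes, 3.29% of which were higher. The nucleolar proteins Npm1 (0.62 ± 0.10), Ncl (0.66 ± 0.11) and Nop56 (0.83 ± 0.15) and the growth regulator Pa2g4 (0.90 ± 0.15) had the smallest p, with adjusted p from 3.64e-08 to 2.04e-06. The count was 15 as well without endoderm-marker and globin wells, and 6 with DESeq2. Dropping the block also changes the low-count filter: with the filter set by class it was 12, and with that filter and no block 7, of 8513 genes tested each time. In thinned wells, with 1811 genes tested, it was 4, without library 1 it was 8 and without library 4 it was 7. Between A1/A2 Cx3cr1 and Kit wells 10 of 28 were higher and 0 lower, with a median of 0.53 against 0.03, where 3.69% of genes were higher. Ccnd2 stood there at 2.18 ± 0.20 (adjusted p = 1.29e-08). DESeq2 gave 6, thinned wells with 1070 genes tested gave 1 and leaving out any 1 library gave 2 to 6, and 0 were higher where 2 marker transcripts were needed, a setting in which edgeR called 0 genes at all and 685 had an unadjusted p below 0.05.

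In the S100a8 comparison 17 of 28 targets were lower and 0 higher, with a median of -0.77 against -0.07, where 8.61% of genes were lower. Ccnd2 fell by 3.14 on the log2 scale (SE 0.30, adjusted p = 7.65e-22), and Cad, of pyrimidine synthesis, Mcm5 and Nop56 fell by 1.88, 1.62 and 1.15. Without endoderm-marker and globin wells 2 were lower, in thinned wells with 836 genes tested 4, without library 3 it was 3 and without library 4 it was 2. Of all genes, edgeR called 2.99% without those wells, 3.06% without library 3 and 4.69% without library 4. Of 8 genes known as repressed by Myc, 5 were tested between A1/A2 and EMP libraries and 2 called, against 32.8% of all genes. Gadd45a, a stress-response gene, was lower (-0.98 ± 0.20, adjusted p = 0.00369) and Cebpa, a myeloid transcription factor, higher (1.27 ± 0.30, adjusted p = 0.00760) in A1/A2 than in EMP libraries. Between EMP Kit and Cdh5 wells 1 of 4 was called, against 7.59% of all genes: in Kit wells the cell-cycle inhibitor Cdkn1b was lower than in Cdh5 wells (-1.05 ± 0.33, adjusted p = 0.0242). Leaving out 1 library gave 0 to 1 genes of this list called lower there. The other 2 comparisons called 0 of 4 each.

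The genes whose levels ran closest to Mycn were found over 19 sums, those of 5 classes in each library that had them, in 6123 genes averaging 20 CPM or more. The measure was the mean absolute difference of log2(CPM + 10), each gene centred on its own mean. Gata2, a transcription factor of blood progenitors, was nearest at 0.54, followed by Tsc22d1 (0.57), Tgfbr3 (0.60), Ctla2a (0.61) and Nav1 (0.62), against a median of 0.998 over all genes. Gata2 averaged 62.3 CPM in EMP Kit wells, 45.0 CPM in EMP Cdh5 wells, 4.65 CPM in A1/A2 Cx3cr1 wells, 63.4 CPM in A1/A2 Kit wells and 8.71 CPM in A1/A2 S100a8 wells. Mycn averaged 73.7, 61.4, 5.12, 21.9 and 17.1 CPM in the same classes.

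Nearest to Myc were Hist1h1b, a linker histone (0.45), Cdk2ap1 (0.48), Orc2, of the complex that marks replication origins (0.50), Spred1 (0.50) and Ammecr1 (0.51), against a median of 0.976. Hist1h1b averaged 28.6 CPM in EMP Kit wells, 32.7 CPM in EMP Cdh5 wells, 59.5 CPM in A1/A2 Cx3cr1 wells, 15.6 CPM in A1/A2 Kit wells and 8.78 CPM in A1/A2 S100a8 wells. Myc averaged 80.04, 42.9, 93.8, 30.9 and 17.4 CPM in these classes. The sums of a library share its wells' preparation, and no test goes with these distances.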

How the data were processed

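Single cells were measured with mCEL-Seq2, a 3′ method in which molecules carry the barcode of their well and an identifier. The authors deposited estimated counts of molecules, without scaling: undoing the usual correction for collisions among 4096 identifiers gave whole numbers (tolerance 1e-06). BWA 0.6.2-r126 and Seurat are named in the submitters' processing notes, while build and annotation were not given in the sources used here. Wells under 1000 transcripts were left out. Within each library, all kept wells or those of a marker class were added up, rounded and tested with edgeR 4.0.16 (R 4.3.3; quasi-likelihood, robust, TMM, filterByExpr on the design, library as a block between classes), with Benjamini-Hochberg adjustment at 5% over all genes. SE is the absolute log2 fold change over the square root of F. DESeq2 1.42.0 was an alternative. The script was tested on simulated counts.

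Members, gene lists and classes were chosen with earlier results of these data known. Up to 4 genes per list were named, those with the smallest p among called genes, and 5 nearest genes per pattern. The low-count filter was first set by class and was changed to the design after its effect on the results had been seen; counts of genes called are given for both. Promoter windows came from RefSeq. In GENCODE annotation, Max and Mxd1 each overlap 1 predicted gene on the same strand, so their counts may share reads.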

Additional observations from a re-analysis of the deposited data

Results flagged for a closer look

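Among 88 groups of 4 libraries, 7 held a library that stood apart from the other 3 by Dixon's criterion at 95%, which chance meets in about 1 in 20 groups. In A1/A2 endoderm-marker wells, Mycn made up 27.8% of Mycn and Myc transcripts in library 1, against 17.6% to 19.0% in the others. In EMP endoderm-marker wells, Mycn stood at 46.7 CPM in library 3, against 26.0 to 28.1 CPM. Mycl was at 0 CPM in library 4, where no kept well held it, against 1.35 to 1.48 CPM in the others. Without endoderm-marker and globin wells, Max stood at 116 CPM in A1/A2 library 2, against 84.3 to 88.7 CPM, and at 103 CPM in EMP library 2, against 90.2 to 91.6 CPM. Myc in EMP wells with Cdh5 and no Kit stood at 114 CPM in library 3, against 10.5 to 25.9 CPM. Max in EMP wells with Kit and Cdh5 stood at 73.7 CPM in library 4, against 93.0 to 96.1 CPM.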

How the results depend on the processing

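In the S100a8 comparison the log2 fold change of Mxd1 was positive and that of Myc negative under every alternative that gave a value. The counts of genes called moved with the settings. Thinning wells to 5000 transcripts, which also left out 262 of 568 A1/A2 and 150 of 655 EMP wells, gave 755 between the sorts, 71 in the EMP comparison, 18 between Cx3cr1 and Kit wells and 138 in the S100a8 comparison, of 6022, 1811, 1070 and 836 genes tested, and Myc in the last had no value there. DESeq2 gave 330, 255 and 520 in the class comparisons in that order, with 57 higher and 273 lower, 113 and 142, and 285 and 235. Without endoderm-marker and globin wells the S100a8 count was 227, 197 of them higher and 30 lower. Where 2 marker transcripts were needed, edgeR called 0 genes between Cx3cr1 and Kit wells, 685 having an unadjusted p below 0.05, and Myc was -0.061. Same-numbered A1/A2 and EMP libraries deviated from their group means with correlations of 0.222, 0.391, -0.0250 and 0.220. Libraries 1, 2 and 4 correlated best with their own number. As library 3 did not pass 0.1, the numbers were not taken as pairs, and p-values between the sorts come from an unpaired fit. With the replicate block, which also changed the low-count filter from 11144 to 11901 genes tested, 4950 genes were called between the sorts. The low-count filter by class, added after the results were seen, gave 524, 473 and 1512 in the class comparisons. Without the replicate block the EMP comparison called 420, on 8513 genes tested, as with the filter by class, against 9548. Leaving out 1 library gave 2596 to 4087 between the sorts, 325 to 675 in the EMP comparison, 339 to 422 between Cx3cr1 and Kit wells and 273 to 1078 in the S100a8 comparison. In the EMP comparison it gave -0.11 to 1.15 for Mycn and -0.24 to 1.42 for Mxd1, which was -0.12 without library 2 and -0.10 without library 4. The A1/A2 Mycn share was 19.8% as a mean over wells. The causes were not tested. Outside the EMP Kit wells, the Kit, Cdh5 and S100a8 sums of the class comparisons rest on 4 to 12 wells per library.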
